A study of Homo sapiens with 12 samples.

Results

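The comparison set TAMs (tumor-associated macrophages) given an antibody that neutralizes VEGFA against TAMs given an antibody that neutralizes IL-8, both cocultured with MMP28-overexpressing pancreatic cancer cells. Its members were the 3 anti-VEGFA and the 3 anti-IL-8 libraries, chosen by their labels, 6 of the 12 RNA sequencing libraries of the series. The TAMs were THP-1 cells, a human monocytic leukemia line, differentiated with PMA, a phorbol ester that turns them into adherent macrophage-like cells. A Transwell membrane separated them from AsPC-1 cells, a human pancreatic adenocarcinoma line. In the control group the AsPC-1 cells carried an empty vector, and in the OE-MMP28 group a lentivirus made them overexpress MMP28, a secreted matrix metalloproteinase. Both antibody groups had the same MMP28-overexpressing partner cells as OE-MMP28, so the antibody was the labelled difference between them. No sequenced group is named for a control antibody. For conditioned medium the study gives a higher concentration of the IL-8 antibody than of the VEGFA antibody, and for the sequenced cocultures no separate one, so antigen, antibody and concentration cannot be told apart. Each group rested on 1 macrophage line and 1 cancer line, and the libraries of a group were triplicate samples. The study says in general that its cell experiments were repeated independently, but the labels do not tie the 3 libraries of a group to separate cultures, so the p-values measure only the spread between these libraries, which may be technical.

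IL-8, encoded by CXCL8, is a chemokine that draws neutrophils and some monocytes through the receptors CXCR1 and CXCR2. VEGFA drives the growth of blood vessels through FLT1 and KDR, with the neuropilins as coreceptors, and it attracts monocytes mainly through FLT1. Macrophages make both proteins and can answer both, and a neutralizing antibody removes the free protein from the medium without touching the gene that encodes it. In these TAMs the receptors of IL-8 were near absent. CXCR1 had 0 counts in each anti-IL-8 library and 1, 0 and 2 counts in the anti-VEGFA libraries, and CXCR2 had 6, 7 and 2 against 6, 0 and 0. KDR had 8, 6 and 8 counts with anti-IL-8 and 6, 4 and 3 with anti-VEGFA. FLT1 was the VEGF receptor with a measurable level, at 45.6, 48.6 and 45.2 CPM (read counts scaled by TMM to a common library size) with anti-IL-8 and 60.1, 47.4 and 56.4 CPM with anti-VEGFA. The FLT1 ranges of the antibody groups overlapped.

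The 12 libraries held 15852346 to 18701195 counts, at which 3 counts correspond to 0.160 to 0.194 CPM. Macrophage markers summed to 11500 to 13300 CPM with anti-VEGFA and 12900 to 15200 CPM with anti-IL-8, though CD68 had at most 5 counts in any library. The 10 epithelial markers, among which EPCAM had 0 counts in all 12 libraries, summed to 5.22 to 5.51 CPM with anti-VEGFA and 3.69 to 5.40 CPM with anti-IL-8. MMP28 had 0 counts in every library, which allows up to those 0.160 to 0.194 CPM in the TAMs (a limit for counting error only), so the overexpression in the partner cells cannot be checked in these files. Of 5 T cell markers CD3D and CD3E had 0 counts in all 12 libraries and TRAC alone passed the filter, lower with anti-VEGFA (-0.54, SE 0.17, unadjusted p = 0.00485). Mitochondrial genes took 17.8% of the counts in anti-VEGFA replicate 2, against 6.92% to 12.3% in the other 11 libraries. That library stood apart from its group, and some of the results that rest on it are given without it as well.

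Of 58735 genes in the table, 16046 passed the filter on low counts and were tested in edgeR by quasi-likelihood, with p-values adjusted after Benjamini and Hochberg over all of them. At an adjusted p of 0.05, 32 genes differed between the antibodies (0.199%), of which 31 were higher (0.193%) and 1 was lower (0.00623%) with anti-VEGFA. At an unadjusted p of 0.05, 2409 genes differed (15.0%), 1507 higher (9.39%) and 902 lower (5.62%) with anti-VEGFA. Without anti-VEGFA replicate 2 these numbers were 1499 higher and 1409 lower, so the lean towards higher values rested largely on that library. The study gives that p threshold, with limma, and for its cancer cells adds a cutoff on the fold change, which was not applied here. The antibody groups did not overlap in any of the 32 genes, against 3355 genes without overlap among all tested (20.9%, with 11.3% higher and 9.64% lower). By sign alone, 8386 of the 16046 genes had a higher value with anti-VEGFA. Named by what they are known for, the 32 included genes of the immediate response to stimulation (NR4A1, NR4A2, ARC, PTGS2, GEM, ERRFI1), of cell division and DNA repair (MYBL1, CDCA2, KIF23, BRCA2), of nuclear RNA processing (NEAT1, CLK1, RSRP1, INTS6), and of secreted proteins and surface receptors (EDN2, TSLP, C9, ITGA2, SSTR2, NPC1L1). These groupings were made after the values were seen and were not tested for enrichment. The number of calls rested on single anti-IL-8 libraries, with 3 calls without anti-IL-8 replicate 1, 5 without replicate 3 and 26 without replicate 2. It was 41, 51 and 10 without anti-VEGFA replicates 1, 2 and 3, and 112 and 97 without OE-MMP28 replicates 2 and 3, which enter through the shared estimate of spread. A fit of the 6 antibody libraries alone called 17 genes, 16 of them among the 32.

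**Figure D1:**
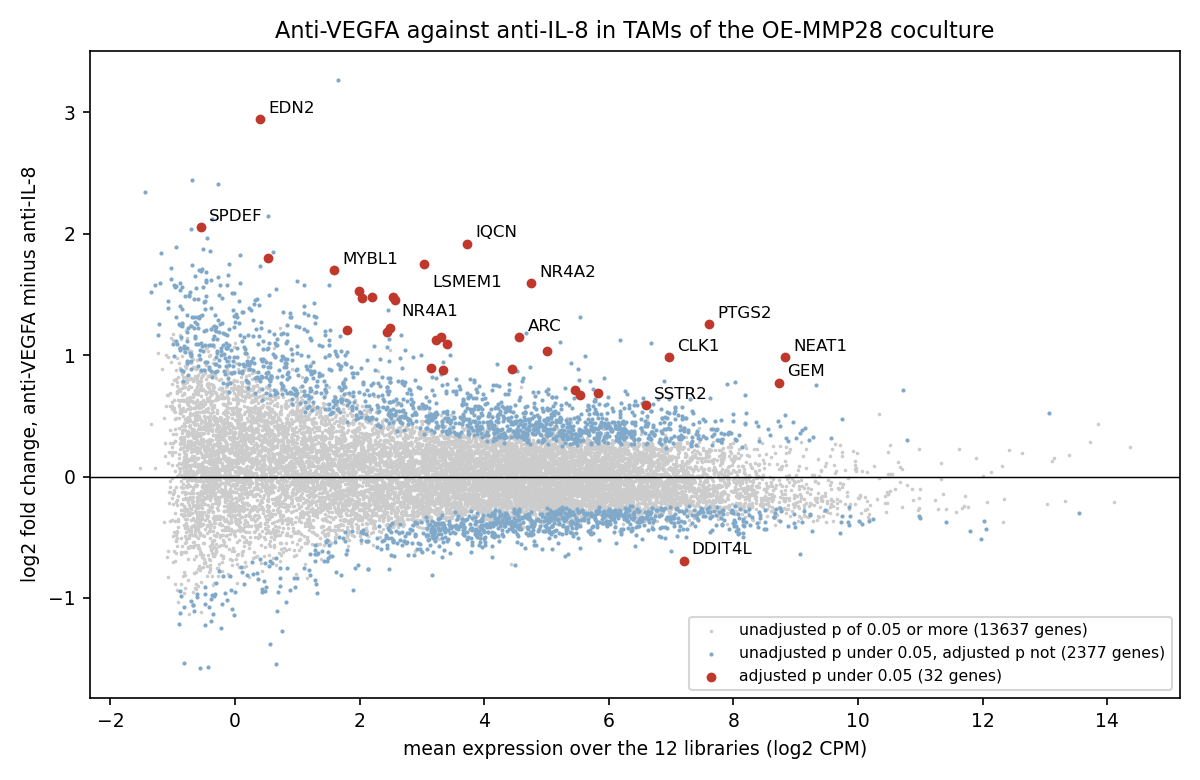
Log2 fold change (anti-VEGFA minus anti-IL-8) of each of the 16046 tested genes against its mean log2 CPM over the 12 libraries. The 32 genes past an adjusted p of 0.05 (red) lie above 0 except DDIT4L, and 2377 further genes (blue) passed the unadjusted threshold alone.

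The promoters of 22 of the 32 genes were found by symbol in a RefSeq table (build GRCh38.p14, 250 bases before to 50 bases after the annotated start). NR4A2, ARC and GEM, genes of the immediate response, were among those not found. A single stretch was searched per gene, so promoters at other starts of the same gene were not covered. The cAMP response element is a motif through which several immediate response genes, PTGS2 and the NR4A family among them, are known to be switched on. It was searched on both strands as the full element TGACGTCA and as its 5-base end CGTCA or TGACG, which every full element contains. The full element was in 0 of the 22 promoters, against 540 of 27305 promoters in the table (2.0%). With a share that low, 0 of 22 cannot tell these promoters from all promoters. The 5-base end was in 7 of the 22, those of PTGS2, CLK1, CMYA5, MTFR2, BRCA2, KIF23 and SSTR2, against 25.0% of all promoters. The promoters of 3 genes are shown, each read along the gene's own strand with the 5-base ends in capitals. That of PTGS2 is one with matches, and that of LSMEM1, the gene with the smallest adjusted p, is one without. For NR4A1, a gene of the same kind as PTGS2, the stretch at the upstream end of its annotated span (52022832 to 52059507) had no match. Other starts of NR4A1 were not searched, so the element is not shown to be absent from that gene.
PTGS2 (chr1:186680374-186680673, minus strand): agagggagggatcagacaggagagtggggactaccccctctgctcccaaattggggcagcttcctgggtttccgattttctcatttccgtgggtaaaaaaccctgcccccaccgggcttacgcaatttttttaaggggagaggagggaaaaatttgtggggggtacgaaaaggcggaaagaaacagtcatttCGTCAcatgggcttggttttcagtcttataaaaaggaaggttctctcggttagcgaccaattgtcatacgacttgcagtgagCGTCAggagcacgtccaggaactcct
NR4A1 (chr12:52022582-52022881, plus strand): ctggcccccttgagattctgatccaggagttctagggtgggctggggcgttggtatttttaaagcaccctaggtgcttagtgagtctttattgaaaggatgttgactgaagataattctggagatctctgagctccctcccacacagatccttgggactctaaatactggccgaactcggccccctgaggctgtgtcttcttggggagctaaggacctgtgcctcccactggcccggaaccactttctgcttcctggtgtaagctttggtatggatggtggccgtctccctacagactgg
LSMEM1 (chr7:112480603-112480902, plus strand): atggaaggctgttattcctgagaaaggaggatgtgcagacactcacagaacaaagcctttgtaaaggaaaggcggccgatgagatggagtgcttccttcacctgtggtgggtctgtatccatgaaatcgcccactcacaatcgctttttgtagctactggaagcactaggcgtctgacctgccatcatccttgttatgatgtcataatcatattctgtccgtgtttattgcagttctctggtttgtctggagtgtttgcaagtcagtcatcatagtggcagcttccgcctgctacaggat
The first match in the PTGS2 promoter begins at position -58 relative to the start, and the second lies downstream of the start.

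All 6 called genes of the immediate response to stimulation were higher with anti-VEGFA, as were 31 of all 32 called genes. NR4A2 (chr2:156324432-156342348, minus strand, GRCh38), a nuclear receptor gene induced early by many stimuli, was at 33.9, 34.0 and 36.8 CPM with anti-VEGFA (replicates 1 to 3) and at 12.4, 14.7 and 7.46 CPM with anti-IL-8. The lowest anti-VEGFA library was far above the highest anti-IL-8 library, and the fitted difference was 3.01-fold (log2 fold change 1.59, SE 0.20, adjusted p = 0.00229). OE-MMP28 lay at 29.6, 30.3 and 20.6 CPM, nearer to anti-VEGFA (anti-VEGFA minus OE-MMP28 0.38, SE 0.19; anti-IL-8 minus OE-MMP28 -1.21, SE 0.20). The related NR4A1 was at 11.9, 9.71 and 10.4 CPM with anti-VEGFA and at 3.09, 4.98 and 3.18 CPM with anti-IL-8 (log2 fold change 1.48, SE 0.23, adjusted p = 0.00752). Here OE-MMP28, at 5.39, 3.10 and 3.56 CPM, lay with anti-IL-8, so a similar fold in both members of the family went with different positions of the untreated coculture. NR4A3, the remaining member, had an unadjusted p of 0.033 (log2 fold change 0.45, SE 0.19, adjusted p = 0.29).

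PTGS2 encodes cyclooxygenase-2, the inducible enzyme of prostaglandin synthesis. It was at 224, 192 and 304 CPM with anti-VEGFA and at 84.6, 116 and 102 CPM with anti-IL-8 (2.39-fold, log2 fold change 1.26, SE 0.19, adjusted p = 0.00651). OE-MMP28 stood at 217, 213 and 159 CPM and control at 260, 185 and 276 CPM, all above the highest anti-IL-8 library. ARC, an activity-regulated gene best known from neurons, was at 41.3, 35.9 and 42.0 CPM with anti-VEGFA and at 15.3, 19.5 and 18.8 CPM with anti-IL-8 (log2 fold change 1.15, SE 0.17, adjusted p = 0.00422), and both OE-MMP28 (12.98 to 20.8 CPM) and control (17.2 to 21.6 CPM) were at the anti-IL-8 level. GEM, a small GTPase of the RGK family, was at 589, 591 and 533 CPM against 296, 392 and 315 CPM (log2 fold change 0.77, SE 0.13, adjusted p = 0.0128). ERRFI1, a feedback inhibitor of the EGF receptor, was at 39.4, 31.9 and 49.5 CPM against 17.2, 22.7 and 18.9 CPM (log2 fold change 1.04, SE 0.19, adjusted p = 0.0234). The antibody groups were separated in each of these genes, as in all 32 called genes, and PTGS2 and ERRFI1 were highest in anti-VEGFA replicate 3. Leaving out 1 library at a time raised the adjusted p to at most 0.0208 for NR4A2 (without anti-IL-8 replicate 1), and the other 5 lost the call in at least 1 such fit, ARC at 0.0821, PTGS2 at 0.0933, GEM at 0.193 and ERRFI1 at 0.226 without anti-IL-8 replicate 1 and NR4A1 at 0.121 without anti-IL-8 replicate 3.

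A separate list of immediate early genes did not move as one. It held NR4A1 and NR4A2 but not PTGS2, ARC, GEM or ERRFI1. Of 26 tested, 15 had a higher value with anti-VEGFA, where 8386 of all 16046 genes did. The unadjusted threshold was passed higher by 4 (NR4A2, NR4A1, NR4A3 and EGR3) and lower by 2, where 9.39% and 5.62% of all genes passed it. The median log2 fold change was 0.10 against 0.017 over all tested genes, and it was 0.016 without anti-VEGFA replicate 2 and 0.065 without anti-IL-8 replicate 3. The pair that was lower encodes subunits of the AP-1 transcription factor. FOS was at 283, 325 and 299 CPM with anti-VEGFA and at 615, 438 and 360 CPM with anti-IL-8 (log2 fold change -0.64, SE 0.16, unadjusted p = 0.00102, adjusted p = 0.10), and FOSB gave -0.59 (SE 0.26, unadjusted p = 0.034). FOS did not overlap between the antibody groups but spread most among the anti-IL-8 libraries. OE-MMP28, at 673, 606 and 594 CPM, lay above all anti-VEGFA libraries and overlapped the anti-IL-8 libraries. Among the genes of MAPK signaling and its feedback, DUSP4 (0.68, SE 0.15) and DUSP5 (0.30, SE 0.12), phosphatases that switch MAP kinases off, passed the unadjusted threshold higher. DUSP1 (-0.36, SE 0.15), MAPK3 (-0.41, SE 0.14) and 2 others passed it lower, of 23 tested.

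**Figure D2:**
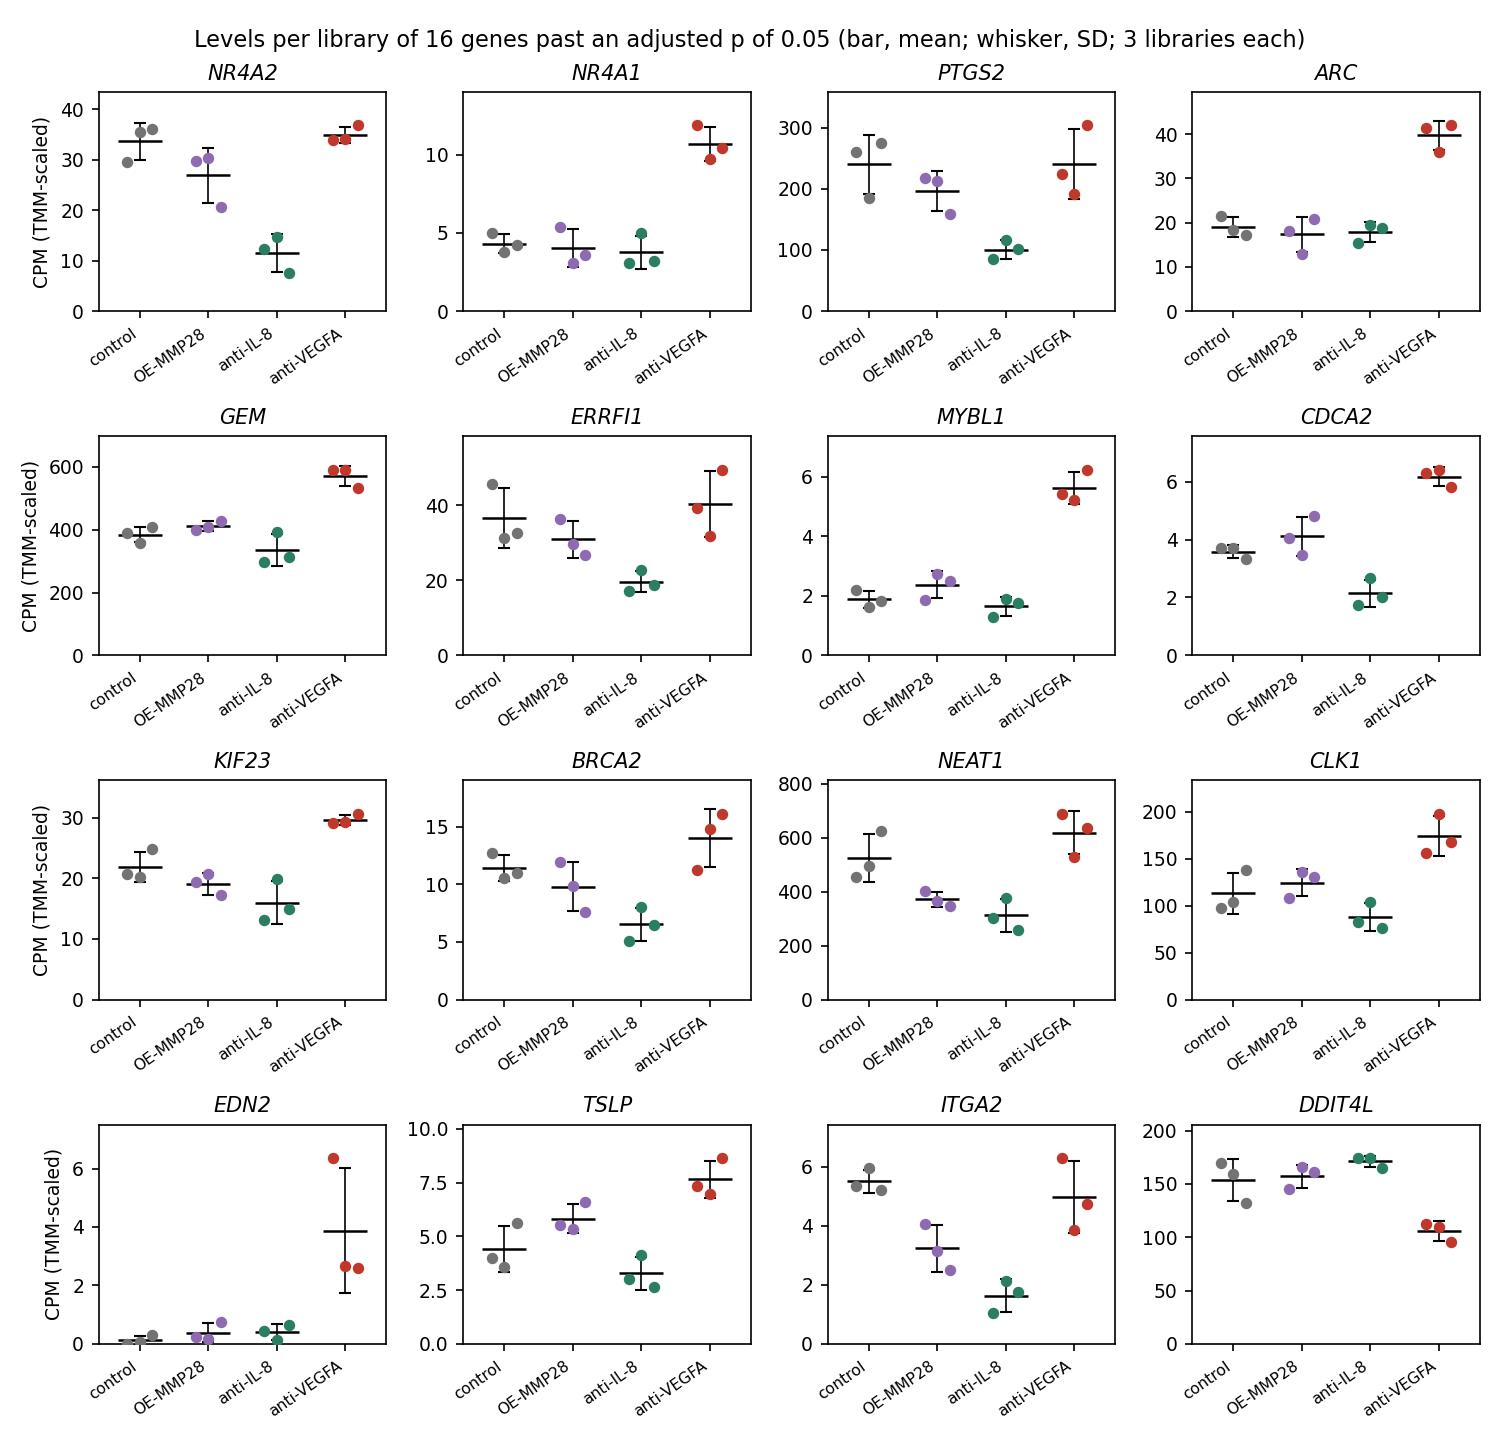
TMM-scaled CPM of 16 of the 32 genes in each library of the 4 groups, with the mean (bar) and SD (whisker) of 3 libraries, all axes starting at 0. In each panel the 3 anti-VEGFA points lie beyond the 3 anti-IL-8 points, while OE-MMP28 lies near anti-IL-8 for NR4A1, ARC and EDN2 and near anti-VEGFA for NR4A2 and PTGS2.

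The called genes of cell division and DNA repair were all higher with anti-VEGFA, as were 31 of all 32 called genes. MYBL1, a transcription factor of the MYB family, was at 5.41, 5.21 and 6.24 CPM with anti-VEGFA and at 1.29, 1.90 and 1.75 CPM with anti-IL-8 (3.25-fold, log2 fold change 1.70, SE 0.23, adjusted p = 0.00400). CDCA2, which brings protein phosphatase 1 to chromosomes at the end of mitosis, was at 6.30, 6.41 and 5.81 CPM against 1.74, 2.67 and 2.01 CPM (log2 fold change 1.47, SE 0.21, adjusted p = 0.00400). In both genes the anti-VEGFA values were tight and the OE-MMP28 mean lay between the antibody means, though for MYBL1 the OE-MMP28 libraries (1.87 to 2.75 CPM) overlapped those of anti-IL-8. KIF23, a kinesin of the dividing cell's midbody, was at 29.1, 29.2 and 30.6 CPM against 13.1, 19.9 and 15.0 CPM (log2 fold change 0.88, SE 0.15, adjusted p = 0.0206). MTFR2 (log2 fold change 1.12, SE 0.18, adjusted p = 0.0119) and BRCA2, which acts in the repair of broken DNA (1.09, SE 0.20, adjusted p = 0.0247), had 13.3 to 15.4 and 11.2 to 16.1 CPM with anti-VEGFA against 5.51 to 7.27 and 5.08 to 8.01 CPM. The general cell cycle list did not hold MYBL1, CDCA2, KIF23, MTFR2 or BRCA2, so its counts leave them out. Of its 43 tested genes, 8 passed the unadjusted threshold higher, among them CENPF (0.64), CCNE2 (0.96), AURKA (0.36) and CENPA (0.71). The threshold was passed lower by 1, where 9.39% of all genes passed it higher and 5.62% lower. Of the 43, 0 passed the adjusted threshold. The median of the list was 0.021, near that of all genes, and it was -0.024 without anti-VEGFA replicate 1 and -0.018 without anti-IL-8 replicate 1. Without anti-IL-8 replicate 1 the adjusted p was 0.0616 for MYBL1, 0.0681 for CDCA2, 0.226 for KIF23 and 0.260 for BRCA2, and without anti-IL-8 replicate 3 it was 0.133 for MTFR2.

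The 4 called genes tied to nuclear RNA and its processing were also higher with anti-VEGFA, as were 31 of all 32 called genes. NEAT1, the long noncoding RNA around which paraspeckles form, was at 688, 530 and 637 CPM with anti-VEGFA and at 304, 377 and 257 CPM with anti-IL-8 (1.98-fold, log2 fold change 0.99, SE 0.16, adjusted p = 0.0111). CLK1, a kinase of splicing factors, was at 156, 198 and 168 CPM against 82.3, 104 and 76.8 CPM (log2 fold change 0.98, SE 0.16, adjusted p = 0.0109). RSRP1, an arginine- and serine-rich protein, had 56.6 to 59.4 CPM against 30.7 to 41.4 CPM (0.71, SE 0.13, adjusted p = 0.0234), and INTS6, a subunit of the Integrator complex, had 51.1 to 58.5 against 31.1 to 39.0 CPM (0.67, SE 0.13, adjusted p = 0.0414). The groups were apart in all 4, as in all 32 called genes, with the smallest relative gap for INTS6. RSRP1 overlaps TMEM50A and RHD on the opposite strand, and the counting is not stated to have used strand, so its reads may include theirs. MALAT1, the neighbour of NEAT1 and named after its values were seen, gave 0.78 (SE 0.16) and missed the adjusted threshold at 0.0534. Without anti-IL-8 replicate 1 the adjusted p was 0.153 for CLK1, 0.283 for RSRP1 and 0.338 for INTS6, and without anti-IL-8 replicate 3 it was 0.130 for NEAT1.

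Among genes of secreted proteins and surface receptors, EDN2 had the largest fold of the 32. EDN2 (chr1:41478775-41484673, minus strand, GRCh38) encodes endothelin-2, a vasoactive peptide, and had 107, 42 and 49 counts with anti-VEGFA (6.36, 2.67 and 2.61 CPM) against 7, 2 and 10 counts with anti-IL-8 (0.451, 0.119 and 0.649 CPM). All 3 anti-VEGFA libraries were higher, replicate 1 by far the most, and the fitted difference was 7.69-fold (log2 fold change 2.94, SE 0.54, adjusted p = 0.0247). TSLP, an epithelial alarmin cytokine, was at 7.37, 6.99 and 8.64 CPM against 3.02, 4.15 and 2.66 CPM (log2 fold change 1.19, SE 0.21, adjusted p = 0.0234). ITGA2, the alpha-2 chain of a collagen receptor, was at 6.30, 3.87 and 4.75 CPM against 1.03, 2.13 and 1.75 CPM (log2 fold change 1.53, SE 0.27, adjusted p = 0.0206). C9, a pore-forming complement component, gave 1.22 (SE 0.24, adjusted p = 0.0414), SSTR2, a somatostatin receptor, 0.59 (SE 0.12, adjusted p = 0.0473), and NPC1L1, a cholesterol transporter, 1.80 (SE 0.34, adjusted p = 0.0269). C9 shares its strand and part of its span with DAB2, an abundant gene that did not pass the unadjusted threshold in edgeR (-0.17, SE 0.12, unadjusted p = 0.18). Several of these genes are better known from epithelium than from macrophages. The summed epithelial markers of the antibody groups overlapped (5.22 to 5.51 CPM with anti-VEGFA, 3.69 to 5.40 CPM with anti-IL-8), 3 of the 10 passed the filter, and their part in these differences was not tested. All 6 genes lost the adjusted call in at least 1 fit without a single antibody library, with the highest adjusted p between 0.177 (ITGA2) and 0.338 (SSTR2).

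The remaining calls were of mixed function. LSMEM1 (chr7:112480853-112491062, plus strand, GRCh38), which encodes a small membrane protein, had the smallest adjusted p of the comparison, with 14.4, 18.5 and 15.8 CPM with anti-VEGFA and 4.25, 5.52 and 4.41 CPM with anti-IL-8 (3.37-fold, log2 fold change 1.75, SE 0.18, adjusted p = 2.72e-04). It overlaps IFRD1 on the same strand, and IFRD1, at 85.7, 96.3 and 91.2 against 67.1, 68.8 and 65.0 CPM, gave 0.44 (SE 0.11, adjusted p = 0.0915). IQCN, an IQ-motif protein, was at 48.6, 24.5 and 22.6 CPM against 10.4, 7.83 and 6.81 CPM, with replicate 1 well above its group (log2 fold change 1.92, SE 0.27, adjusted p = 0.00400). LSMEM1 and NR4A2 kept an adjusted p under 0.05 in every fit that left out 1 antibody library, while IQCN reached 0.0534 without anti-IL-8 replicate 3. HSPA2, a heat shock protein 70 family member (1.46, SE 0.23), GFPT2, an enzyme of hexosamine synthesis (0.88, SE 0.16), MN1, a transcriptional coactivator (1.21, SE 0.22), SPDEF, an epithelial transcription factor (2.05, SE 0.38), and CMYA5 (0.69, SE 0.13) were higher. So were 3 noncoding transcripts, AL078604.2 (1.48, SE 0.20), AL354719.2 (0.90, SE 0.17), which is antisense to EYS, and AL096865.1 (1.15, SE 0.23), which is antisense to RUNX2. RUNX2 had 0.56 (SE 0.16, adjusted p = 0.126), and without strand its reads and those of AL096865.1 cannot be told apart. SPDEF had 1.12 to 1.59 CPM with anti-VEGFA and 0.193 to 0.296 CPM with anti-IL-8, the latter near the level of 3 counts.

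DDIT4L was the 1 gene that was lower with anti-VEGFA. It lies at chr4:100185870-100190782 (minus strand, GRCh38), encodes a stress-induced inhibitor of mTOR signaling, and was at 112, 110 and 95.4 CPM with anti-VEGFA and at 174, 174 and 165 CPM with anti-IL-8 (1.62-fold lower with anti-VEGFA, log2 fold change -0.69, SE 0.12, adjusted p = 0.0234). OE-MMP28, at 145, 165 and 161 CPM, stayed near the anti-IL-8 values. Without anti-IL-8 replicate 1 its adjusted p was 0.153. At the unadjusted threshold, the largest falls among protein-coding genes with at least 50 counts included HLA-DRA, the alpha chain of the MHC class II molecule HLA-DR (1.72, 1.46 and 2.08 CPM against 4.12, 3.74 and 2.73 CPM, log2 fold change -0.96, SE 0.26, unadjusted p = 0.00179). CSF2, which encodes the cytokine GM-CSF, was at 7.19, 7.62 and 6.88 CPM against 12.7, 14.1 and 11.4 CPM (-0.81, SE 0.17, unadjusted p = 1.47e-04, adjusted p = 0.0534). HEBP1, which encodes a heme-binding protein, gave -0.72 (SE 0.15, adjusted p = 0.0534). The same rule also gave SPDYE3, FAHD2B, CDPF1, ZNF365, ZNF658 and MKS1, between -0.73 and -0.88, and CPNE9 (1.61) and ASGR1 (1.58) were the largest of those higher that missed the adjusted threshold. ASGR1 rested on anti-VEGFA replicate 2, at 11.5 CPM beside 3.56 and 3.89 CPM.

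The OE-MMP28 libraries place these differences. Their mean lay between the antibody means for 28 of the 32 genes and below both for the other 4. Measured from OE-MMP28, 8 of the 32 passed an adjusted p of 0.05 with anti-VEGFA (LSMEM1, AL078604.2, MYBL1, IQCN, ARC, NR4A1, HSPA2 and EDN2), where 0.343% of all genes did, and 0 passed it with anti-IL-8, where 0% of all genes did. At the unadjusted threshold 26 of them passed with anti-VEGFA, against 18.8% of all genes, and 17 with anti-IL-8, against 29.3%. The same OE-MMP28 libraries enter both comparisons, and the genes were picked for the distance between the antibody groups, so these counts are descriptions. For PTGS2 the anti-IL-8 group was the farther one from OE-MMP28 (-0.96, SE 0.19, against 0.29, SE 0.19), as for TSLP (-0.80, SE 0.22, against 0.39, SE 0.20) and ITGA2 (-0.93, SE 0.27, against 0.60, SE 0.25). For ARC it was the anti-VEGFA group (1.19, SE 0.17, against 0.05, SE 0.17), as for EDN2 (3.02, SE 0.54, against 0.07, SE 0.58).

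**Figure D3:**
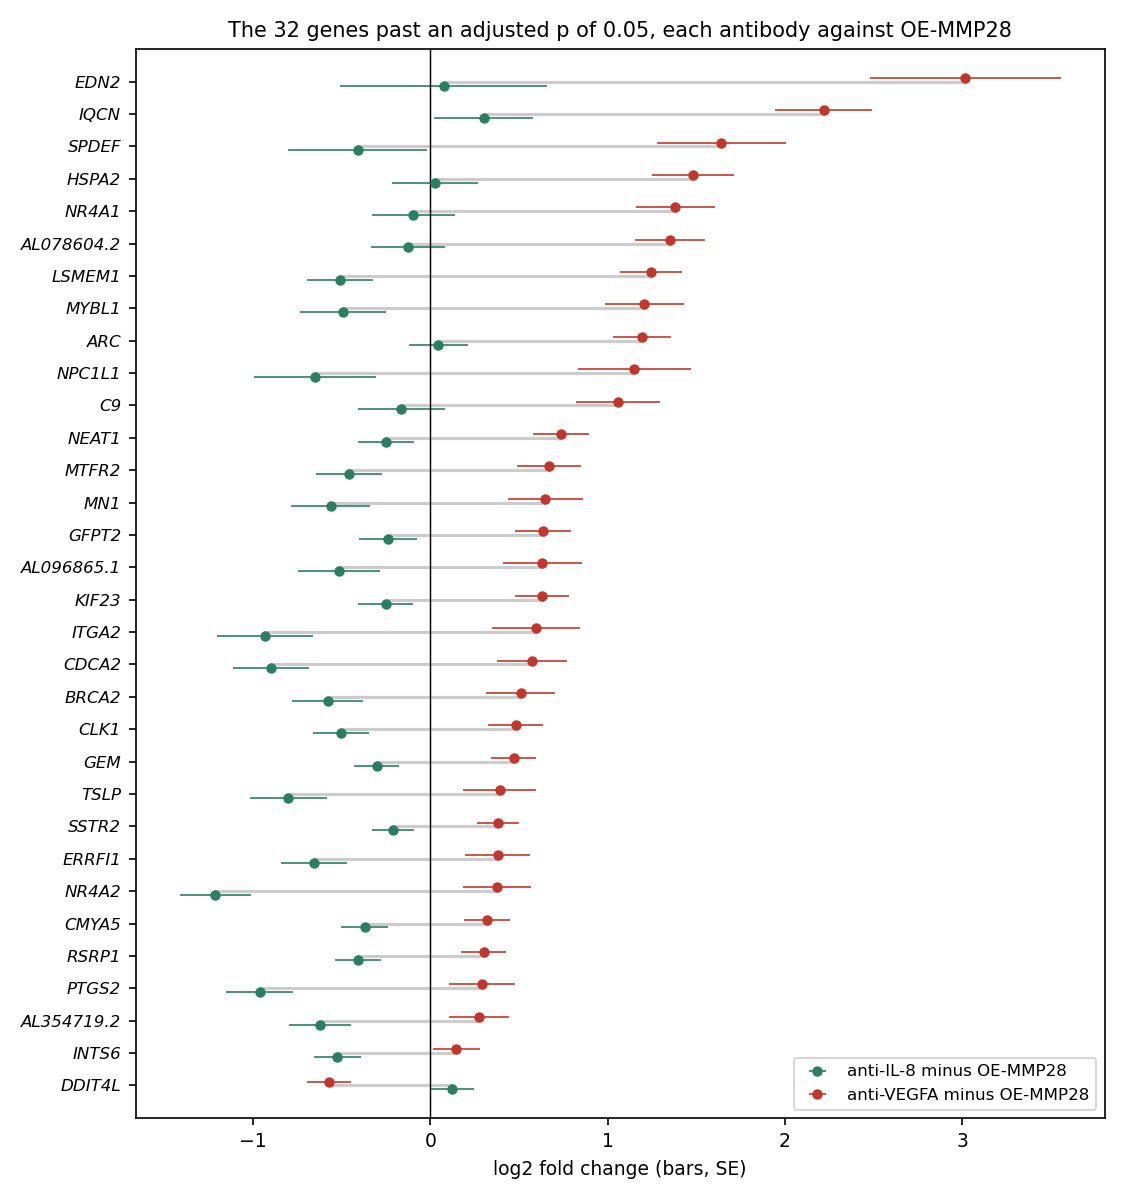
Log2 fold change of each of the 32 genes from OE-MMP28, with anti-IL-8 (green) and with anti-VEGFA (red), bars giving the SE. Genes from EDN2 down to C9 are far from OE-MMP28 with anti-VEGFA, while NR4A2, PTGS2 and ITGA2 are farther from it with anti-IL-8.

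The genes of both neutralized proteins and their relatives were examined as lists. These lists, like those that follow, were chosen with earlier results of these data known. All 7 tested genes of the IL-8 axis had a higher value with anti-VEGFA, with a median log2 fold change of 0.34, and 3 passed the unadjusted threshold higher. Of all 16046 genes, 8386 had a higher value, and 9.39% passed that threshold higher and 5.62% lower. CXCL8 itself was at 7965, 7987 and 11912 CPM with anti-VEGFA and at 5753, 7302 and 6344 CPM with anti-IL-8 (log2 fold change 0.52, SE 0.18, unadjusted p = 0.00889, adjusted p = 0.20). OE-MMP28 was at 10199, 11238 and 9330 CPM, above all 3 anti-IL-8 libraries. The neutrophil chemokines CXCL5 (0.61, SE 0.18, unadjusted p = 0.00287) and CXCL6 (0.53, SE 0.17, unadjusted p = 0.00635) did the same, while CXCL2 (0.34), CXCL1 (0.28), PPBP (0.076) and CXCL3 (0.016) did not pass it. The list leaned on anti-VEGFA replicate 3, without which its median was 0.058. Of 6 tested genes of the VEGF axis, VEGFA was at 923, 668 and 966 CPM with anti-VEGFA and at 681, 713 and 725 CPM with anti-IL-8 (0.27, SE 0.15, unadjusted p = 0.082), and the groups overlapped. NRP2, a neuropilin coreceptor, passed the unadjusted threshold (0.33, SE 0.15, unadjusted p in edgeR 0.045), and FLT1 (0.23), NRP1 (0.24), VEGFC (0.18) and VEGFB (-0.31) did not.

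Interferon-stimulated genes were the list with the highest median in the fit of all 12 libraries. Of 29 tested, 28 had a higher value with anti-VEGFA and the median was 0.54, 13 passed the unadjusted threshold higher and 0 lower, where 9.39% and 5.62% of all genes did, and 0 passed the adjusted threshold. RSAD2, an antiviral enzyme, was at 8.55, 5.14 and 5.28 CPM with anti-VEGFA and at 2.12, 3.56 and 1.69 CPM with anti-IL-8 (log2 fold change 1.31, SE 0.27, unadjusted p = 1.16e-04, adjusted p = 0.0519). IFIT1, which binds foreign RNA, was at 22.2, 23.8 and 14.8 CPM against 8.49, 11.1 and 8.43 CPM (1.10, SE 0.23, adjusted p = 0.0534). OE-MMP28 had 12.2 to 22.3 CPM of IFIT1, and the mean of control was 362 CPM, so both antibody groups stood far below control in a gene in which they differed from each other. HERC5 (1.19, SE 0.28) and MX1 (0.79, SE 0.20) followed. RSAD2 overlaps CMPK2 on the opposite strand, and its reads may include those of CMPK2. The list kept a positive median in every alternative fit, from 0.28 to 0.63. Its rank was less stable. Without anti-VEGFA replicate 1 its median was 0.39, below the IL-8 axis (0.47) and the metallothionein list described below (0.77). Per library, the list's median deviation from the gene means over the 12 libraries (log2 CPM) was -0.276, -0.446 and -0.802 with anti-VEGFA (replicates 1 to 3). With anti-IL-8 it was -1.12, -0.776 and -1.2, so the groups overlapped.

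Among lists with at least 5 tested genes, the ribosomal proteins had the lowest median and the nuclear genes of the respiratory chain the next. All but 3 of 78 ribosomal protein genes had a lower value with anti-VEGFA, with a median of -0.31, and 15 passed the unadjusted threshold lower and 0 higher, where 5.62% and 9.39% of all genes did. Per library, the list's median deviation from the gene means was -0.408, 0.198 and -0.141 with anti-VEGFA (replicates 1 to 3). With anti-IL-8 it was 0.393, 0.182 and 0.0755, so the groups overlapped. RPL10A was at 495, 547 and 527 CPM against 767, 679 and 695 CPM (-0.45, SE 0.13, unadjusted p = 0.00258), and RPL30 (-0.54), RPL23A (-0.44) and RPS3A (-0.42) were also past it. Ribosomal protein genes have many processed pseudogenes that share reads with them. The nuclear genes of the respiratory chain had a median of -0.25 over 46 genes, 10 of them lower and 0 higher at the unadjusted threshold, among them UQCRC2, NDUFB5, NDUFA4 and ATP5PB. Their library medians overlapped too, with 0.162 in anti-VEGFA replicate 2 against 0.156 and 0.106 in anti-IL-8 replicates 2 and 3. Anti-VEGFA replicate 2, the library with the high mitochondrial share, mattered here, since without it the medians were -0.51 for the ribosomal proteins and -0.36 for the respiratory chain. Without anti-VEGFA replicate 1 both medians were -0.16, so the size of either median depended on which library was left out. Their rank did too, since in that fit the integrin list (-0.32) and the Fc receptor list (-0.27), among others, were lower. The 15 genes of mitochondrial DNA gave a median of 0.19 with anti-VEGFA replicate 2 and -0.35 without it, so their direction rested on that library.

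Amino acid metabolism is a pathway the study takes up, and here its genes were compared between the antibodies. Of 56 tested, 15 passed the unadjusted threshold lower and 2 higher with anti-VEGFA, where 5.62% and 9.39% of all genes did, with a median of -0.15, and 0 passed the adjusted threshold. GOT1 (-0.50, SE 0.15) and GOT2 (-0.36, SE 0.12), the aspartate aminotransferases, and IVD (-0.42, SE 0.13), an enzyme of leucine breakdown, were lower. Targets of ATF4, the transcription factor of amino acid shortage, had a median of -0.20 (-0.35 without anti-VEGFA replicate 2), with 7 of 25 lower and 0 higher. PHGDH, the first enzyme of serine synthesis, was at 284, 286 and 250 CPM with anti-VEGFA and at 408, 330 and 394 CPM with anti-IL-8 (-0.46, SE 0.17, unadjusted p = 0.0148), and TRIB3 (-0.38, SE 0.12) and CTH (-0.38, SE 0.16) shared the direction. Of the 20 aminoacyl-tRNA synthetases 5 were lower and 0 higher, among them AARS (-0.44), YARS (-0.43), SARS (-0.41) and WARS (-0.31). Some genes stand in more than 1 of these lists. Amino acid transporters went both ways, with 6 of 21 higher and 5 lower, both above the shares of all genes. SLC38A2, which carries glutamine and other small neutral amino acids, was at 2075, 1647 and 2245 CPM with anti-VEGFA against 1054, 1283 and 1300 CPM (0.71, SE 0.15, adjusted p = 0.0534), without overlap, and SLC43A2 (0.66), SLC16A10 (0.61) and SLC36A4 (0.39) were also higher. SLC7A5, the large neutral amino acid transporter, was lower (-0.38, SE 0.15).

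**Figure D4:**
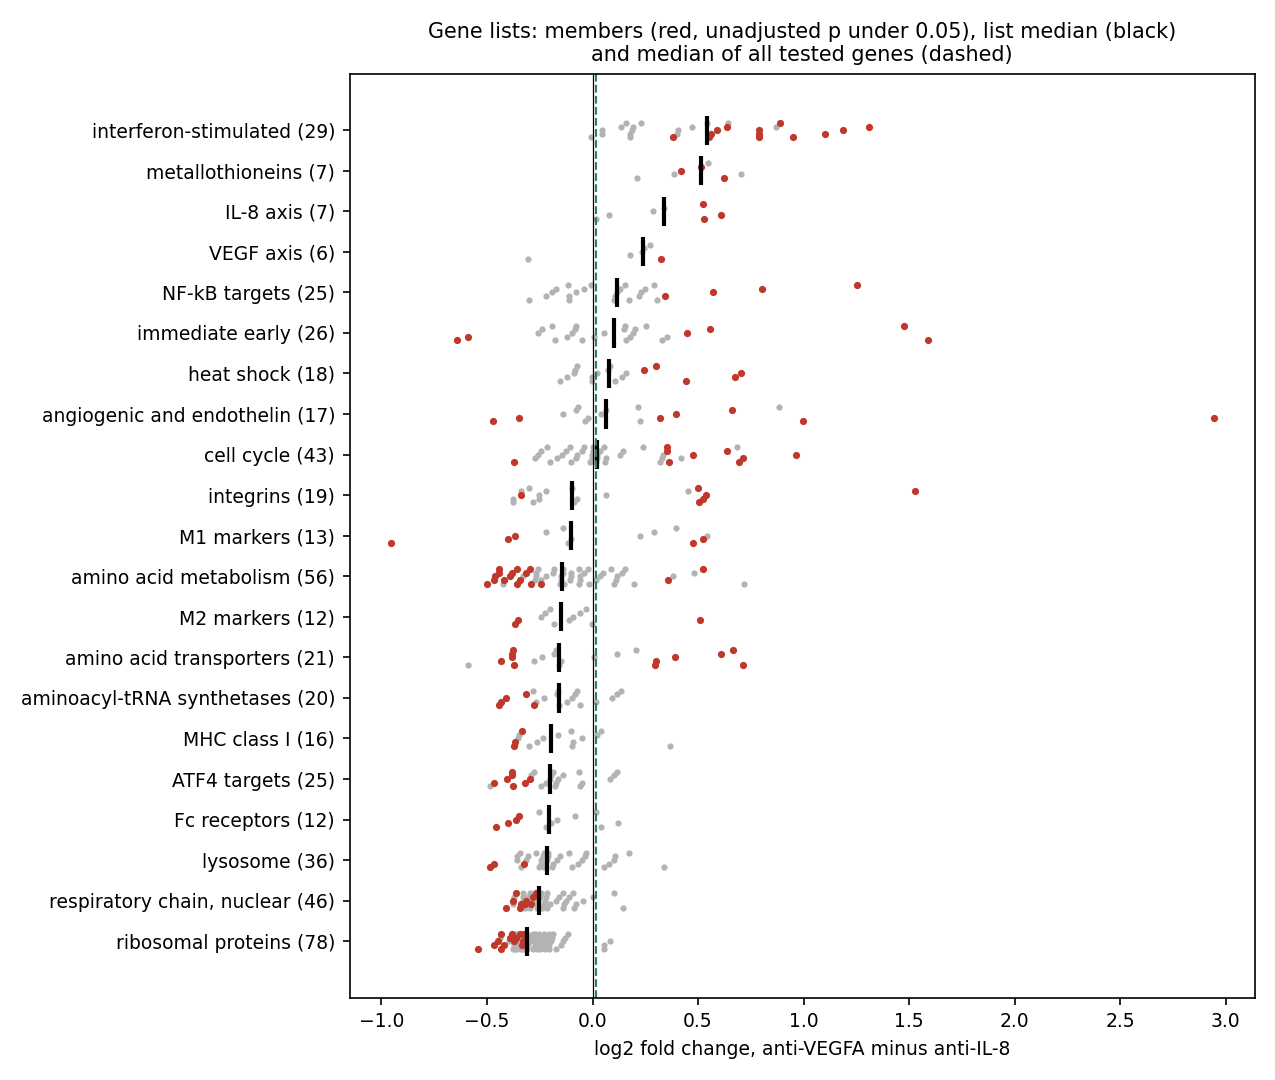
Log2 fold changes (anti-VEGFA minus anti-IL-8) of the members of 21 gene lists, with the number tested in parentheses, members past an unadjusted p of 0.05 in red, list medians as black bars and the median of all genes (0.017) dashed. Interferon-stimulated genes lie highest and ribosomal proteins lowest, and the amino acid transporters hold red points on both sides of 0.

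The lists of macrophage identity, Fc receptors, MHC genes and lysosomal genes had medians below 0 with anti-VEGFA. The unadjusted threshold was passed lower by 5.62% of all genes and higher by 9.39%, and 8386 of all 16046 genes had a higher value. Of 13 tested identity markers 12 had a lower value (median -0.19, and -0.31 without anti-IL-8 replicate 2 or -0.29 without anti-VEGFA replicate 3) and 2 passed the unadjusted threshold, CD4 (-0.39, SE 0.16) and FCER1G (-0.36, SE 0.15). CSF1R, the receptor for macrophage colony-stimulating factor, was at 174, 106 and 131 CPM against 200, 131 and 211 CPM (-0.40, SE 0.19, unadjusted p = 0.053), and the groups overlapped. The Fc receptor list, which also holds the kinases SYK and LYN, had a median of -0.21 with 4 of 12 lower, among them FCGR2B (-0.46, SE 0.17) and FCGR1A (-0.40, SE 0.15). MHC class I genes (median -0.20, 3 of 16 lower, HLA-E and HLA-C among them), MHC class II genes (median -0.21, 1 of 9 lower, HLA-DRA) and lysosomal genes (median -0.21, 3 of 36 lower, CTSH and HEXA among them) had 0 genes higher at the unadjusted threshold. Without anti-VEGFA replicate 2 the median was -0.090 for the lysosomal genes and -0.13 for MHC class II, and the latter was -0.11 without anti-IL-8 replicate 3. HLA genes share reads with close paralogs. Genes used as M1 markers (13 tested, 2 higher and 3 lower) and as M2 markers (12 tested, 1 higher and 2 lower) went both ways. Of M1 markers, IL23A (0.52) and SOCS3 (0.47) were higher and IRF5 (-0.37) was lower, and of M2 markers CLEC7A (0.51) was higher and CD209 (-0.37) and TGM2 (-0.35) were lower. CD86, the study's M1 marker, was at 1.37, 0.572 and 0.747 CPM with anti-VEGFA and at 0.515, 0.474 and 0.973 CPM with anti-IL-8 (0.40, SE 0.43, unadjusted p = 0.37). CD163, its M2 marker, was at 4.16, 1.71 and 3.89 CPM against 4.76, 2.13 and 2.98 CPM (-0.0043, SE 0.32, unadjusted p = 0.99). ITGAM, which encodes the CD11b used to gate TAMs, was at 620, 398 and 461 CPM against 614, 482 and 671 CPM (-0.26, SE 0.16, unadjusted p = 0.12). The antibody groups overlapped in all 3, and with an SE of 0.43 a difference in CD86 of the size seen was not detectable at this depth.

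Further lists are given by their counts at the unadjusted threshold, which 15.0% of all genes passed, 9.39% higher and 5.62% lower. Of 18 heat shock genes 5 were higher and 0 lower, HSPH1 (0.68, SE 0.15), CHORDC1, HSP90AA1 and DNAJB4 among them. Of the hypoxia list 4 of 23 were higher, HIF1A (0.76, SE 0.17), KDM3A, BHLHE40 and ADM, and 1, the glycolytic PGK1 (-0.28), was lower. Among the 39 genes of glucose metabolism 0 were higher and 3 lower, with FBP1 (-0.50, SE 0.13) and GAPDH (-0.31, SE 0.13) besides PGK1. Of 19 genes of the integrin list, which includes the integrin ligands ICAM1 and VCAM1, 7 had a higher value, against 8386 of all 16046 genes. The threshold was passed higher by 5, ITGA2, ITGA1 (0.53), ITGB8 (0.54), ITGAV (0.50) and ITGA6 (0.50), and lower by 1, ITGAL (-0.34). Of 17 angiogenic factors 5 were higher, with FGF2 (0.66, SE 0.17) and THBS1 (1.00, SE 0.29), an inhibitor of vessel growth, beside EDN2, and 2 were lower, with PDGFA (-0.47, SE 0.12). Metallothioneins bind zinc and copper. Their list, which also holds the zinc exporter SLC30A1 and MTF1, neither of them a metallothionein, had a median of 0.52 over 7 tested genes. Of these, 3 passed the unadjusted threshold (MT1X, MT1E and SLC30A1), and the near-identical MT1 genes can share reads. That median was 0.24 without anti-VEGFA replicate 3 and 0.77 without anti-VEGFA replicate 1. NF-kB targets had 4 of 25 higher, PTGS2, REL (0.80), BIRC3 (0.57) and NFKBIA (0.34), and 0 lower. Of matrix metalloproteinases and their relatives 2 of 18 were higher and 2 lower, with MMP8 at 0.43 and MMP14 at -0.45. The list for CC chemokines had 0 of 12 past the unadjusted threshold. That for the IL-1 family and inflammasome (NLRP3 -0.30) had 1 higher and 1 lower of 14. Toll-like receptors and their signaling partners (TLR10 1.35) had 1 higher of 14. Scavenger receptors (MARCO -0.48) had 2 lower of 10, and fatty acid metabolism (ACSL4 0.36) had 1 higher and 5 lower of 43. The counts were 4 higher and 1 lower of 31 for cholesterol synthesis and uptake, 2 higher and 1 lower of 21 for the NRF2 response, 1 higher of 16 for complement and 1 higher of 22 for endoplasmic reticulum chaperones. The shares past the threshold in either direction were near the 15.0% of all genes for cholesterol (16.1%), the NRF2 response (14.3%), the IL-1 family (14.3%) and fatty acid metabolism (14%), and below it for glucose metabolism (7.69%), Toll-like receptors (7.14%), complement (6.25%) and the chaperones (4.55%).

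The direction of a change went with how abundant, long and GC-rich a gene was. Among genes under 30 mean counts 64.9% had a higher value with anti-VEGFA (median 0.17), and among those over 3000 counts 31.3% had (median -0.12). Genes higher at the unadjusted threshold had a median GC content of 42.9% and lower ones 51.2%, against 48.3% over all tested genes, and median lengths of 5751 and 3436.5 bases against 4439. The 32 genes had a median GC content of 44.4%. These shares and medians are not given without anti-VEGFA replicate 2. Genes under the filter held 0.141% to 0.201% of the counts with anti-VEGFA and 0.108% to 0.129% with anti-IL-8 (exact permutation test, two-sided, p = 0.1, the smallest that 3 against 3 libraries allow). Over the 13 library measures tested in this way, its adjusted p was 0.325. With offsets for GC content and length, chosen after the values were seen, 31 of the 32 genes kept the adjusted call among 178 genes called. The part of these properties in the gene differences was not otherwise tested.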

How the data were processed

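RNA was sequenced from TAMs of 4 coculture groups with 3 libraries each. The submitters' processing notes name HISAT2 2.0.5 for alignment and featureCounts 1.5.0-p3 for counting. The genome build is not given in the sources used here, but the coordinates of 58735 of 58735 genes match GENCODE 29 on GRCh38. The deposited counts are the authors' unnormalized read counts per gene, and the FPKM values they deposited are linear. The gene lengths are also deposited. The authors' comparison columns (fold changes and p-values) were not used. Whether counting used strand is not stated.

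Counts were read in R 4.3.3 and fitted with edgeR 4.0.16 over all 12 libraries, 1 coefficient per group, after TMM scaling and filterByExpr. The adjusted p covers all 16046 genes tested, and fold changes use a prior count of 2. Of 100 genes simulated with a log2 change of 1 in this comparison, 74% were recovered among 16046 genes, and of 100 with a change of 2, 95%. There were 4 false calls. The changed genes were drawn from those above 1 CPM and no outlying library was simulated. These shares therefore do not cover genes with few counts or groups with an outlying library. The members and gene lists were chosen with earlier results of these data known. Named genes are all those past an adjusted p of 0.05 (at most 40), the 10 largest protein-coding changes per direction at an unadjusted p of 0.05 with at least 50 counts and no overlap, up to 4 members of each list by unadjusted p, all genes of the IL-8 and VEGF lists, and CD86, CD163, ITGAM and MMP28, of which those the description turns on are printed and some are not reported here. MALAT1, IFRD1, DAB2 and RUNX2 were added after values were seen. Replicate numbers did not pair the libraries. Alternatives used limma 3.58.1 and DESeq2 1.42.0, and figures were drawn in Python 3.11.15 with matplotlib 3.10.9.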

Additional observations from a re-analysis of the deposited data

Results flagged for a closer look

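Without the filter on low counts, 8 genes that had not been tested passed an adjusted p of 0.05, all at low counts, and in 3 of them every anti-VEGFA library was above every control library. LDHC, a lactate dehydrogenase known from testis, had 8, 17 and 19 counts with anti-VEGFA, 2, 2 and 1 with anti-IL-8, 3, 0 and 3 in OE-MMP28 and 5, 0 and 1 in control (log2 fold change 2.12 against anti-IL-8, SE 0.58, adjusted p = 0.0371). The noncoding AC105384.2 had 7, 29 and 12 counts with anti-VEGFA, 0, 3 and 1 with anti-IL-8, 0, 2 and 10 in OE-MMP28 and 0 in each control library (2.41, SE 0.58, adjusted p = 0.00867). The noncoding AC025174.1 had 6, 17 and 9 counts with anti-VEGFA, 0 in each anti-IL-8 library, 2, 7 and 5 in OE-MMP28 and 0, 0 and 5 in control (2.65, SE 0.56, adjusted p = 0.00130). In both noncoding genes the OE-MMP28 libraries overlapped the anti-VEGFA libraries. These fitted values rest on few counts and on the prior count. Groups of 3 libraries were not tested for outlying libraries.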

How the results depend on the processing

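The 32 calls at an adjusted p of 0.05 became 252 with DESeq2, 277 without the filter on low counts, 57 with at least 10 counts in every library, 60 with protein-coding genes only, 17 in a fit of the 6 antibody libraries alone, 6 against a minimum log2 fold change of 0.5, 53 with FPKM and a pseudocount of 1, 176 with the mitochondrial share as a covariate and 178 with offsets for GC content and length, the last chosen after seeing the data. Leaving out 1 library at a time gave 3 to 112 calls, and 1319 to 2985 at the unadjusted threshold. Against the minimum fold change 438 of the 2409 genes passed the unadjusted threshold. With limma voom, DESeq2's size factors, library totals or a pseudocount of 0.1, the adjusted count was 31, 31, 34 and 33, with 29, 31, 29 and 21 of the 32 genes among them. The fit of the 6 antibody libraries alone kept 16 of the 32. In all of these fits the 32 genes that were tested kept their direction and an unadjusted p under 0.05, except that 31 did against the minimum fold change. Library totals in place of TMM raised the share of unadjusted calls higher with anti-VEGFA from 62.6% to 73.7%, and leaving out anti-VEGFA replicate 2 lowered it to 51.5%. The causes were not tested. The replicate number as a block gave 26 calls, 23 of them among the 32, but the numbers did not pair the libraries: 4 of 18 same-number pairs had correlated deviations above 0.1 (-0.16 to 0.237), and 4 of 12 libraries correlated best with their own number. Small differences that had passed no threshold changed sign. Leaving out 1 library at a time gave -0.039 to 0.408 for CXCL1, -0.194 to 0.219 for PPBP, -0.234 to 0.12 for CXCL3 and -0.24 to 0.322 for CD163. CXCL3 was also -0.011 with voom, -0.013 with the block and -0.024 with both FPKM pseudocounts, and CD163 0.060 with library totals, 0.015 with at least 10 counts, 0.0057 with protein-coding genes and 0.048 with the mitochondrial covariate. Depth limits genes with few counts, such as SPDEF (3 to 5 with anti-IL-8), EDN2 (2 to 10 with anti-IL-8) and CD86 (8 to 23 in the antibody libraries).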
